A study of Rattus norvegicus with 6 samples.

Results

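A set of 3 genes of the endoplasmic reticulum (ER) stress response, Hspa5, Ddit3 and Atf3, was followed in primary rat hippocampal neurons given palmitic acid, a saturated fatty acid. The genes were taken by identifier (ENSRNOG00000018294, ENSRNOG00000006789 and ENSRNOG00000003745) and are 3 of the 31998 genes in the count table. All 3 were selected on their palmitic acid and vehicle values in these same libraries, so that comparison is given as a description, with no test. Neurons came from hippocampi of Wistar rats, an outbred strain, at embryonic day 17. All cultures received 10 µM cytosine arabinoside, which limits dividing non-neuronal cells, on day 3 and were used after 12 days in vitro. The sample labels and the table hold 3 cultures per group and the labels name an mRNA kit, whereas the design text of the series speaks of 2 per group and of ribosomal RNA depletion; the labels were followed. Of the 6 cultures, 3 received vehicle and 3 received 200 µM palmitic acid prepared in bovine serum albumin. The specimens labelled 1, 4 and 5 each gave 1 culture to each treatment. The number of animals behind a specimen and the duration of exposure have no entry in the labels.

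Proteins that enter the secretory pathway fold in the ER. When unfolded protein accumulates there, the sensors ATF6, IRE1 and PERK start the unfolded protein response. ATF6, and XBP1 downstream of IRE1, induce chaperones, while PERK slows translation and favours the transcription factor ATF4, which also answers to amino acid shortage. Hspa5 encodes BiP (GRP78), the ER chaperone of the HSP70 family that binds unfolded chains and holds the sensors inactive. Ddit3 encodes CHOP, a C/EBP-family transcription factor induced through ATF4 and linked to cell death under lasting ER stress. Atf3 encodes a bZIP transcription factor of the ATF/CREB family that ATF4 can induce, and that injury and other stresses also induce in neurons. Palmitic acid is a known inducer of ER stress in several cell types.

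The upstream sequences show where known stress-response motifs lie in genes that were higher together. RefSeq windows of assembly GRCr8 were matched by symbol for 2 of the 3 genes, Hspa5 and Ddit3. The 250 bases before each gene's start are printed 5′ to 3′ on the plus strand, at chr3:38452766-38453015 for Hspa5 and chr7:65001445-65001694 for Ddit3. Capitals mark every match, on either strand, to 6 motifs. These were the ER stress response element (CCAAT, then 9 bases of any kind, then CCACG), the CCAAT box CCAAT, the ATF6 and CREB-like core TGACGTG, the cAMP response element TGACGTCA, the AP-1 site TGACTCA and the C/EBP-ATF core TTGCATCA. In the ER stress response element only the fixed letters are in capitals.
Hspa5: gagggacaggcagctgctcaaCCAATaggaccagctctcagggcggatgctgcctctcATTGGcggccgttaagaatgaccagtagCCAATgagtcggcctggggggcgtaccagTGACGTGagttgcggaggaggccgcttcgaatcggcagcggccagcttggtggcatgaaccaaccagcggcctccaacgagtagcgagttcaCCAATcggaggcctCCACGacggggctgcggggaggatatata
Ddit3: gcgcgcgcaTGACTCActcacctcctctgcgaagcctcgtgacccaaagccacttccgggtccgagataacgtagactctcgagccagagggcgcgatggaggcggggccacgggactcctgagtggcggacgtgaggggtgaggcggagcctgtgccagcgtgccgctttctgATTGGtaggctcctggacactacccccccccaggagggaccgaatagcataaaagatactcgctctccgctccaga

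The Hspa5 window held 1 exact match to the ER stress response element, from base -43 to base -25 before the start. The CCAAT part of this match is also 1 of the 4 CCAAT boxes in the window. Such an exact match was found in 22 of the 33469 windows of the same length (0.0657%). The Ddit3 window had none. Copies of the element that differ in any fixed letter were not searched for, so either window may hold some. Hspa5 also held the core TGACGTG at bases -135 to -129, which was present in 1.54% of windows. In Ddit3 the AP-1 letters lay at bases -241 to -235, as in 4.05% of windows, and 1 CCAAT box lay on the opposite strand at bases -76 to -72. A CCAAT box was present in 34.0% of windows. The cAMP response element (1.59% of windows) and the C/EBP-ATF core (0.693%) had no match in either gene's 250 bases. A match describes the letters only and not the binding of a factor.

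**Figure D1:**
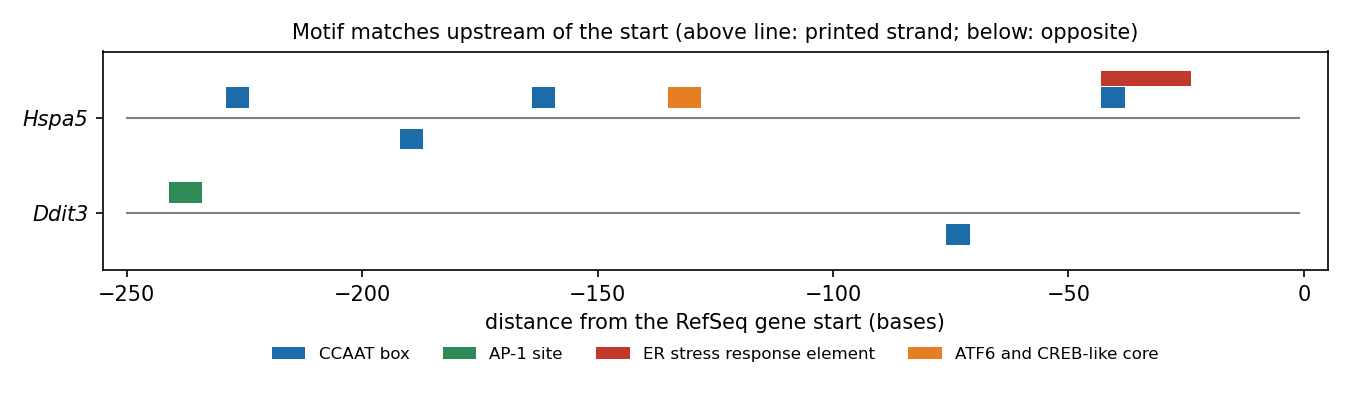
Motif matches in the 250 bases before the RefSeq start of Hspa5 and Ddit3, by distance from the start in bases. Bars above a line are on the printed strand and bars below it on the opposite strand. The exact match of Hspa5 to the ER stress response element lies at -43 to -25, over 1 of the 4 CCAAT boxes of Hspa5. The AP-1 match of Ddit3 lies at -241 to -235.

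The 6 libraries held 15875411 to 18241773 counts. The 2 libraries of specimen 4 stood apart from the others: on the first principal component of log2 CPM (counts scaled to the library total), with 79.5% of the variance, they lay at 110 and 115, and the other 4 between -64.6 and -50. The descriptions of the palmitic acid comparison are therefore repeated without specimen 4, which leaves 2 cultures per group. The count table gives no gene names, so neuronal and glial markers and the other genes of the response were not examined. In these bulk cultures a lower level in every cell and fewer cells that express the gene cannot be told apart. Counting may share reads between overlapping genes. In the RefSeq table Hspa5 overlapped no other gene, Ddit3 overlapped Mars1 and LOC134479709, and Atf3 overlapped Garin4, and the sources used here do not say if strand was used in counting.

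Hspa5, the chaperone, was higher with palmitic acid in 3 of 3 specimens. Its CPM, on library totals scaled by the TMM method, was 408 (6803 counts), 292 (4503) and 388 (6777) in the vehicle cultures of specimens 1, 4 and 5. In the palmitic acid cultures it was 560 (9817 counts), 846 (15308) and 534 (9757). The groups did not overlap, as for 2.18% of the 13938 genes tested in this direction, and the lowest palmitic acid culture stood 1.31-fold above the highest vehicle culture. The vehicle mean was 363 ± 61.8 CPM and the palmitic acid mean 647 ± 173 CPM (SD, n = 3), or 398 and 547 CPM without specimen 4.

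Within specimens, the Hspa5 ratio of palmitic acid to vehicle was 1.37-fold in specimen 1 (exact 95% interval 1.33 to 1.42), 2.9-fold in specimen 4 (2.8 to 2.99) and 1.38-fold in specimen 5 (1.33 to 1.42). These intervals cover counting error only. Specimens 1 and 5 thus gave nearly the same ratio, and specimen 4 a larger one. The mean log2 ratio was 0.82 ± 0.62 (SD, n = 3 specimens), and it was 0.46 without specimen 4.

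Ddit3, which encodes CHOP, was also higher with palmitic acid in 3 of 3 specimens. In the vehicle cultures of specimens 1, 4 and 5 it had 26 CPM (433 counts), 22 CPM (339) and 29.7 CPM (518). In the palmitic acid cultures it had 33.8 CPM (593 counts), 63 CPM (1139) and 34.7 CPM (635). The groups did not overlap, but the lowest palmitic acid culture was only 1.14-fold above the highest vehicle culture. The means were 25.9 ± 3.83 CPM and 43.9 ± 16.6 CPM (SD, n = 3), or 27.8 and 34.3 CPM without specimen 4.

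The Ddit3 ratio was 1.3-fold in specimen 1 (exact 95% counting interval 1.15 to 1.48), 2.86-fold in specimen 4 (2.53 to 3.24) and 1.17-fold in specimen 5 (1.04 to 1.32). The mean log2 ratio was 0.71 ± 0.7 (SD, n = 3 specimens). Without specimen 4 it was 0.31, or 1.24-fold, so most of the mean log2 ratio of Ddit3 came from that specimen. The same held for Hspa5 and for Atf3.

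Atf3 showed the widest differences of the 3 genes. Its vehicle cultures had 3.48 CPM (58 counts), 0.584 CPM (9) and 8.53 CPM (149) in specimens 1, 4 and 5. Its palmitic acid cultures had 11.6 CPM (204 counts), 52.1 CPM (943) and 24.4 CPM (445). The groups did not overlap, with the lowest palmitic acid culture 1.36-fold above the highest vehicle culture. The means were 4.2 ± 4.02 CPM and 29.4 ± 20.7 CPM (SD, n = 3), or 6.01 and 18 CPM without specimen 4.

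The Atf3 ratio was 3.35-fold in specimen 1 (exact 95% counting interval 2.49 to 4.56) and 2.85-fold in specimen 5 (2.37 to 3.46). In specimen 4 it was 89.2-fold, with an interval of 46.8 to 196 because the vehicle culture had only 9 counts. The mean log2 ratio was 3.25 ± 2.8 (SD, n = 3 specimens), and 1.63 without specimen 4, or 3.09-fold. The paired edgeR fit, which weights specimens by their counts, gave Atf3 a log2 fold change of 2.76, against 0.81 for Hspa5 and 0.7 for Ddit3. Without specimen 4 these were 1.61, 0.46 and 0.31.

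**Figure D2:**
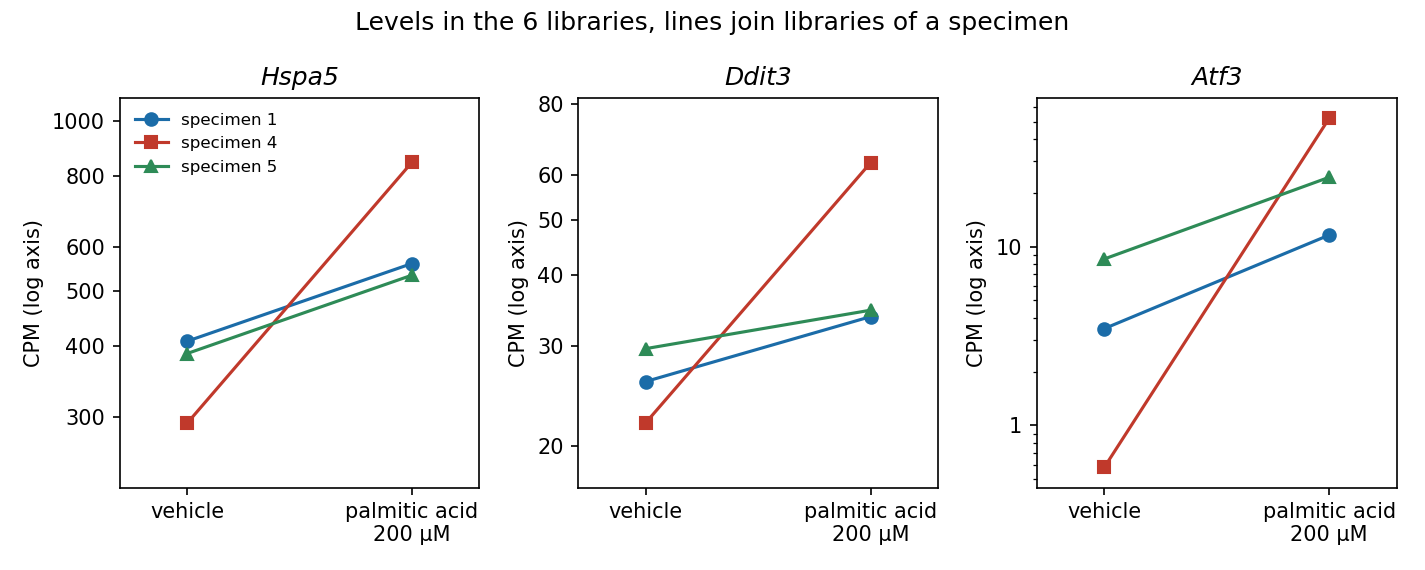
CPM of Hspa5, Ddit3 and Atf3 in each library on log axes whose ranges differ between panels; each line joins the vehicle and the palmitic acid culture of 1 specimen. Every line goes up, and specimen 4 has the lowest vehicle culture and the highest palmitic acid culture in each panel (Atf3: 0.584 and 52.1 CPM).

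Specimen 4 thus held the lowest vehicle value and the highest palmitic acid value of all 3 genes. Its vehicle culture lay below the mean of the vehicle cultures of specimens 1 and 5 by 1.36-fold for Hspa5, 1.26-fold for Ddit3 and 10.3-fold for Atf3. Its palmitic acid culture lay above the mean of the other 2 by 1.55-fold, 1.84-fold and 2.9-fold. Among the 13938 genes that passed the filter on low counts, which all 3 genes did, 123 (0.882%) were higher without overlap and had specimen 4 at both ends in this way. The reverse pattern, lower without overlap and with specimen 4 at both ends, was present in 25 genes (0.179%). With 1 culture per specimen and treatment, a difference in response between specimens could not be tested.

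The changes were set beside those of all genes tested, on log2 CPM with a prior count of 2. The 3 genes were all among the 304 genes (2.18%) that were higher with palmitic acid without overlap between groups. Without specimen 4 they were among 1539 such genes (11%). All of them were also among the 2197 genes (15.8%) that were higher in 3 of 3 specimens. Atf3 was the only one of the 3 among the 7 genes (0.0502%) over 2-fold higher in every specimen. When genes were ordered by the smallest of their 3 changes, Atf3 came first of 13938, Hspa5 stood at rank 58 and Ddit3 at rank 262. Over specimens 1 and 5 alone these ranks were 7, 150 and 549. Since the genes were chosen with these values in view, the ranks are a description and support nothing further.

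By specimen, Atf3 had rank 37, 4 and 44 of 13938 genes in specimens 1, 4 and 5, ordered from the largest upward change. Hspa5 had rank 703, 230 and 586, and so lay within the top 5.04% in each. Ddit3 had rank 973, 244 and 1843, the last at 13.2% of genes. Changes were wider in specimen 4 for genes in general: their SD was 0.62 there, against 0.45 in specimen 1 and 0.36 in specimen 5. A change of over 2-fold upward was seen at 0.897%, 4.9% and 0.89% of genes in specimens 1, 4 and 5. The larger ratios of the 3 genes in specimen 4 thus stood beside wider changes of genes in general, whose part in them was not tested.

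**Figure D3:**
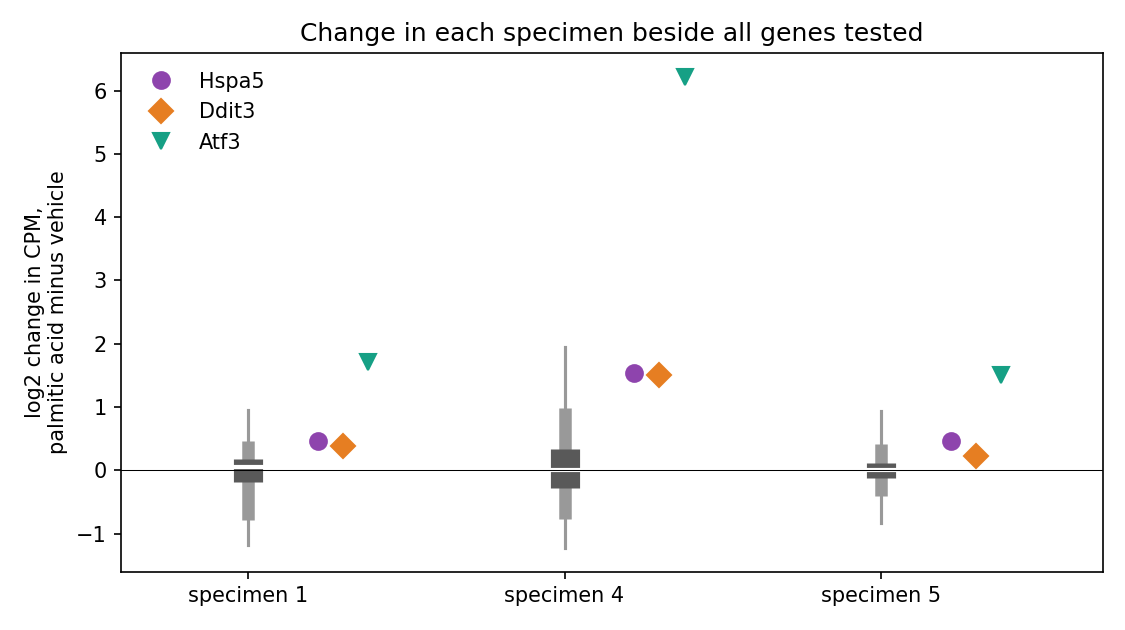
Log2 change in CPM (palmitic acid minus vehicle, prior count 2) of the 3 genes in each specimen, as coloured points, beside all 13938 genes tested, as bars and lines for the middle 50%, 90% and 98% with the median in white. Atf3 lies above the middle 98% in all 3 specimens, and Ddit3 lies within the middle 90% in specimens 1 and 5, at 0.38 and 0.23.

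**Figure D4:**
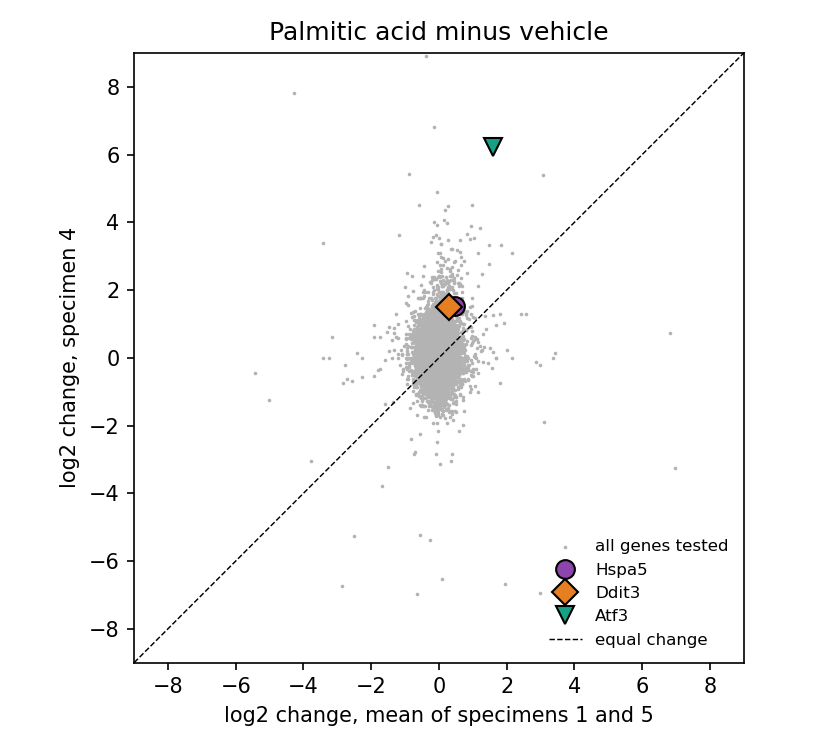
Log2 change with palmitic acid in specimen 4 against the mean of specimens 1 and 5 for all 13938 genes tested (grey) and the 3 genes (coloured), with a dashed line of equal change. All 3 genes lie above the line; Atf3 is at 6.22 in specimen 4 and at 1.71 and 1.5 in specimens 1 and 5.

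Across all genes, the paired edgeR quasi-likelihood test called 0 genes higher (0%) and 0 lower (0%) of 13938, with a smallest Benjamini-Hochberg adjusted p of 0.279. Unadjusted p-values under 0.05 were found at 280 genes that were higher and 213 that were lower. The paired DESeq2 fit ran on 20710 genes, all those with a read, and called 2 higher and 4 lower. The paired limma fit, on the 13938 genes, called 0.

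Whether the 3 genes differed between specimens was tested with treatment in the same fit. The genes were not chosen on this contrast, but they were chosen on values of the same libraries. The error of the fit also holds the difference in response between specimens, so the test is not independent of that choice. Each specimen enters with 2 libraries, 1 per treatment. Of 9 comparisons, 0 passed an adjusted p of 0.05 in edgeR's quasi-likelihood test, in DESeq2 or in limma, and 0 had an unadjusted edgeR p under 0.05. Over all genes, edgeR called 32.5% between specimens 4 and 1, 2.92% between 5 and 1, and 34.7% between 5 and 4. The shares in DESeq2 and limma are not given here. Hspa5 had a mean of 484, 569 and 461 CPM in specimens 1, 4 and 5, and its log2 difference was 0.09 ± 0.29 (SE) for specimen 4 against 1 (edgeR adjusted p = 0.831). Ddit3 had 29.9, 42.5 and 32.2 CPM, with 0.39 ± 0.32 for specimen 4 against 1 (edgeR adjusted p = 0.39). Atf3 had 7.56, 26.4 and 16.4 CPM. Its log2 difference was 0.95 ± 1.01 for specimen 4 against 1 (edgeR adjusted p = 0.51), 1.27 ± 0.97 for 5 against 1 (adjusted p = 0.502) and 0.32 ± 0.98 for 5 against 4 (adjusted p = 0.826). The last is opposite in direction to the mean CPM, which weighs the 52.1 CPM of 1 culture of specimen 4 most. With standard errors of this size, the tests do not show that the specimens were alike.

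The specimen averages hide the opposite positions of the 2 cultures of specimen 4. Without its vehicle culture, 7 of the 9 comparisons passed, while 41.7% of all genes were called between specimens 4 and 1, 10.1% between 5 and 1 and 41.1% between 5 and 4. Atf3 was then higher in specimen 4 than in specimen 1 by 2.26 on the log2 scale. Without its palmitic acid culture 4 passed, beside 27.9%, 10.3% and 33.4% of all genes. The same Atf3 difference was then -2.63. Each such fit has 1 residual degree of freedom for a gene taken alone and assumes that the lone library of specimen 4 varies like the others. A comparison with specimen 4 then rests on that library and on the treatment difference of specimens 1 and 5. The genes were chosen on values that include this difference. The calls with specimen 4 are therefore not taken as a difference between specimens, and their log2 values describe single cultures. In each fit Atf3 between specimens 5 and 1, which keep 2 libraries each, was also among the calls. Its log2 difference was 1.18 and 1.13, against 1.27 in the fit of all libraries. That comparison rests on the 1 residual degree of freedom from specimens 1 and 5, so it is not taken as a difference either. For fits that leave out any 1 of the other 4 libraries, the share of all genes called is not given here. Their calls are therefore not read as a result about the 3 genes.

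Within one treatment, the spread between cultures was wider for Atf3 than for Hspa5 and Ddit3. The highest vehicle culture exceeded the lowest by 1.4-fold for Hspa5, 1.35-fold for Ddit3 and 14.6-fold for Atf3. With palmitic acid these spans were 1.59-fold, 1.86-fold and 4.48-fold. The vehicle cultures of specimens 5 and 1 differed by -0.07 (log2) for Hspa5, and 82.7% of genes differed by more. Between the vehicle cultures of specimens 4 and 1 Hspa5 differed by -0.48, and 44.4% of genes differed by more, so its spread was not small throughout. With palmitic acid, Ddit3 differed by 0.9 between specimens 4 and 1, and 33.6% of genes differed by more. For Atf3 the vehicle cultures of specimens 5 and 1 differed by 1.29, and 4.66% of genes differed by more. Atf3 thus varied between vehicle cultures more than most genes did, and these are values of single cultures with no replicate.

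The sum of squares of log2 CPM over the 6 libraries was divided into treatment, specimen and remainder. Treatment took 71.4% for Hspa5, 55.4% for Ddit3 and 62% for Atf3, and the specimen means took 1.17%, 8.2% and 8.26%. The median gene had 3.9% for treatment and 78.8% for specimen. The remainder, which holds the difference in response between specimens, was 27.4%, 36.4% and 29.7%. Without specimen 4, treatment took 97.7%, 83% and 65.4% and specimen 2.33%, 11.8% and 34.3%, against medians of 12.7% and 63.3% over all genes. The treatment share belongs to the values that chose these genes. The shares divide 1 total, so a high treatment share leaves less for specimen, and the low specimen shares follow in part from that choice.

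The likeness of the 3 genes was measured by Pearson's correlation of log2 CPM over the 6 libraries, which are 3 pairs and share the position of specimen 4. It was 0.961 between Hspa5 and Ddit3, 0.922 between Hspa5 and Atf3 and 0.894 between Ddit3 and Atf3. Over the 4 libraries of specimens 1 and 5 it was 0.847, 0.71 and 0.95. The 3 genes were chosen on their values in these libraries, so their correlation with each other follows in part from that choice. Of 9734 other genes with a mean of at least 10 CPM, 24 were closer to Hspa5 than Ddit3 was. ENSRNOG00000007546 was closest to Ddit3 (r = 0.998), with 117, 99.7 and 140 CPM in the vehicle cultures of specimens 1, 4 and 5 and 155, 312 and 154 CPM with palmitic acid. ENSRNOG00000047134 was closest to Hspa5 (r = 0.992), with 78.5, 66.2 and 77.4 CPM and then 86.5, 102 and 86.6 CPM. The gene closest to Atf3 reached r = 0.99. As departures from the specimen mean, which leave 3 independent values, 873 to 1062 genes exceeded r = 0.95 with one of the 3 genes, so that measure separates few genes.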

How the data were processed

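Raw read counts, deposited by the authors as 1 table, cover 31998 Ensembl rat identifiers and 6 libraries. Per the labels' protocols, a stranded mRNA kit was used on 500 ng of RNA, and both fragment ends were read for 125 bases. The submitters' processing notes name featureCounts, edgeR, DESeq2, Salmon 0.14.1, STAR 2.7.1a and Trimmomatic 0.39 without role. The sources used here do not give genome build, annotation or strand setting. The genes and lists were chosen with earlier results of these data known. The 12 gene lists hold 132 symbols, and 0 could be paired with an identifier, so they were not tested. By the rule for named genes, the 3 genes and their closest genes by correlation are named; of the latter, only 2 are printed, since they have no symbol.

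Computation used R 4.3.3, edgeR 4.0.16 (quasi-likelihood F test, TMM, filterByExpr with a minimum count of 10, specimen as a block), limma 3.58.1 with voom and DESeq2 1.42.0, with Benjamini-Hochberg adjustment over 13938 genes in edgeR. The paired edgeR, limma and DESeq2 fits of the full set of libraries were run on simulated data, with the outcome not given here. The other settings and the fits with libraries left out were not. The specimen label pairs the libraries, and its 2 libraries departed from their group means together (correlation across genes 0.771, 0.89 and 0.855). A standard error is the log2 fold change divided by the square root of F. A count of 0 allows up to 3 counts, or 0.164 to 0.195 CPM, for counting error only. In the fits with specimen as a block, the p-values rest on how far the treatment difference varied between specimens. They do not measure the spread of replicate cultures, since no specimen had replicates within a treatment.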

Additional observations from a re-analysis of the deposited data

How the results depend on the processing

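The log2 ratios of Hspa5, Ddit3 and Atf3 were above 0 in all 21 alternatives run for them, and no alternative moved one by more than 1 SD between specimens, which is wide. Leaving out 1 specimen gave 0.46 to 1 for Hspa5, 0.31 to 0.95 for Ddit3 and 1.63 to 4.11 for Atf3, the lowest each time without specimen 4. With no replicate block, the log2 ratio of the group means was 0.83, 0.76 and 2.81. The count of genes called with palmitic acid, 0 higher and 0 lower in the paired edgeR fit, was also 0 and 0 with no replicate block, limma, DESeq2 size factors or a filter of 1 CPM in 3 libraries. It was 2 higher and 4 lower in the paired DESeq2 fit and 2 and 1 with no filter, each on every gene with a read. With the block and without 1 specimen it ran from 2 to 4 higher and from 1 to 4 lower. Without 1 library, where the block was dropped as well, it was 0 and 0 each time. The cause was not tested.

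Between specimens, 0 of 9 comparisons passed in the 5 other settings, and none changed sign. The share of all genes called in those settings is not given here, so this 0 is not set beside genes in general. Leaving out 1 library, chosen after seeing the data, gave 0 to 7 calls, with calls only where a library of specimen 4 was left out. Those calls come from fits with 1 culture of specimen 4 and are not taken as a difference between specimens. For the fits without a library of specimen 1 or 5, the share of all genes called is not given here. With 1 library left out, the log2 difference of specimen 4 minus 1 ran from -0.48 to 0.64 for Hspa5. It ran from -0.28 to 0.98 for Ddit3 and from -2.63 to 2.26 for Atf3. For specimen 5 minus 1 it ran from -0.38 to 0.22, -0.29 to 0.45 and -0.09 to 2.16. For specimen 5 minus 4 it ran from -0.69 to 0.38, -0.85 to 0.36 and -1.08 to 3.76. The alternatives planned for other ER stress genes were not run, because identifiers could not be paired with symbols. Depth limits Atf3 most, at 9 counts in the vehicle culture of specimen 4.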
